A study of Mus musculus with 29 samples.

Results

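The late plaque-response genes of microglia, the resident macrophages of the brain, were followed through 7 groups of mice. The set holds Spp1, Igf1, Csf1, Dkk2, Itgax, Clec7a, Lilrb4a, Gpnmb, Cst7 and Ank. They were taken by symbol from the table of raw counts, as known genes of the late disease-associated state. All 10 were found among the 22327 genes of the table, and all 10 were among the 16074 genes that passed the filter on low counts.

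Each of the 29 libraries came from the cortex of 1 mouse aged 6 months. It was made from polyA RNA pulled down on GFP-antibody beads with ribosomes that carried an eGFP-L10a tag (translating ribosome affinity purification, TRAP). Every mouse carried Cx3cr1CreErt2/+, which recombines in microglia and also in border macrophages, and had received 6 doses of 100 mg/kg tamoxifen. The 5xFAD iPKR group (n = 4) carried 5xFAD and Eef1a1LSL.NS3.eGFPL10a.iPKR/+, which expresses the tag, NS3 and a drug-inducible version of PKR, a kinase of eIF2α. These mice received VEGF (1 µg/kg) and ASV (5 mg/kg), an inhibitor of the NS3 protease also known as asunaprevir, over 4 weeks. The 5xFAD Eif2A group (n = 3) carried 5xFAD, the tag Eef1a1LSL.eGFPL10a/+ and Eif2s1A/A;Tg(Eif2s1), an allele of the translation factor eIF2α that cannot be phosphorylated once its floxed rescue transgene is removed. The tag is given in the sample labels of both Eif2A genotypes but not in the series description. The 5xFAD TRAP group (n = 4) carried 5xFAD and the tag alone, and had VEGF and ASV. The iPKR ASV group (n = 5) combined the construct with VEGF and ASV, and the iPKR vehicle group (n = 4) with VEGF and the DMSO and PEG vehicle. The Eif2A group (n = 4) had the Eif2s1 allele with the tag, and the TRAP group (n = 5) the tag alone. The TRAP, Eif2A and 5xFAD Eif2A mice received neither VEGF nor ASV. 5xFAD mice carry mutant human transgenes, APP among them, under the neuronal Thy1 promoter and form amyloid plaques.

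Microglia that touch amyloid plaques lose part of their resting program and take up a disease-associated state. Its early step is known to raise lipid and lysosome genes such as Apoe and Ctsb, and its late step, which depends on the receptor TREM2, raises the genes described here. They encode secreted signals (Spp1, Igf1, Csf1, Dkk2), cell surface proteins (Itgax, Clec7a, Lilrb4a, Gpnmb), a lysosomal protease inhibitor (Cst7) and a membrane transport protein (Ank). Phosphorylation of eIF2α, which the Eif2A allele prevents and PKR carries out, lowers general translation in the integrated stress response.

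The promoters of these genes are shown because the genes move together in 5xFAD mice. RefSeq (GRCm38.p6) gave 300 bases for each start, from 250 before it to 50 after it, for 9 of the 10 genes. The letters TGANTCA, the kind bound by AP-1 factors, were present on either strand in 4 of the 9 genes with a promoter. These were 4 of the 11 promoters of the 9 genes, against 7.81% of the 32851 promoters of the RefSeq table. Those 4 promoters follow, with the match in capitals, at chr2:150570165-150570464 (plus strand) for Cst7, chr7:128129300-128129599 (plus strand) for Itgax, chr6:49036268-49036567 (plus strand) for Gpnmb and chr10:87860861-87861160 (plus strand) for Igf1. In Igf1 a second run of capitals marks GAGGAAG, the kind of letters bound by PU.1, which lies nearer the start of the sequence.
Cst7: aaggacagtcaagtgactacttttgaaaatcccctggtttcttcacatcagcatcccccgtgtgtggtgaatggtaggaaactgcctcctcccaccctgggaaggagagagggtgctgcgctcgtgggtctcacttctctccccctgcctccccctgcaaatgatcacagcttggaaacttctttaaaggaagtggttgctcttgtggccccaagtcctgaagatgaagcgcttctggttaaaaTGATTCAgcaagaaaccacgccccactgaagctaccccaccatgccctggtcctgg
Itgax: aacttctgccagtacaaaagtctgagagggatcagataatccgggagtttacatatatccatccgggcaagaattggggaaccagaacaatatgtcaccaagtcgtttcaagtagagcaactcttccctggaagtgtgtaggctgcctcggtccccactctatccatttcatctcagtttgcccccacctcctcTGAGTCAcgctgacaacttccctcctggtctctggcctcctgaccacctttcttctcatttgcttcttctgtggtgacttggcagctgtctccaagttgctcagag
Gpnmb: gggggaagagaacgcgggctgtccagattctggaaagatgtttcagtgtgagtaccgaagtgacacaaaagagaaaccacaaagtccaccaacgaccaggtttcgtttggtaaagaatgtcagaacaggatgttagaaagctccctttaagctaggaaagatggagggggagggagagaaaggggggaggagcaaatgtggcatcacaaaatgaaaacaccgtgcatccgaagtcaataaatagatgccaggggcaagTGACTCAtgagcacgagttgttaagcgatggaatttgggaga
Igf1: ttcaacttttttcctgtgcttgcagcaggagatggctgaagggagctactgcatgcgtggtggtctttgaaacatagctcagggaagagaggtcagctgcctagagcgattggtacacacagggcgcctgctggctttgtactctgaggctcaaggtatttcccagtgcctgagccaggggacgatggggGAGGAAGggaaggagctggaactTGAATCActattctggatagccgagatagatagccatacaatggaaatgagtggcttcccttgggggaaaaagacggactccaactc
The TGANTCA match begins 6 bases before the transcription start in Cst7, 56 before it in Itgax, 37 before it in Igf1 and 9 after it in Gpnmb. GAGGAAG was present in 2 of the 9 genes, Spp1 and Igf1 (2 of the 11 promoters), and in 13.6% of all promoters. The E-box CACGTG (7.15% of all promoters), TCATGTG (3.77%) and TGATGNAA (3.97%) were in none of the 9. Both strands were searched, and no 2 matches overlap in the promoters shown. These matches describe the letters only and say nothing of binding.

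Coordinates on mm10 are from GENCODE release M21. Cst7 spans chr2:150570415-150578944, Itgax chr7:128129547-128150657, Spp1 chr5:104435118-104441050, Gpnmb chr6:49036546-49070929, Igf1 chr10:87858265-87937042, Ank chr15:27466677-27594909, Dkk2 chr3:132085292-132180304 and Lilrb4a chr10:51490956-51496611, all on the plus strand. Clec7a (chr6:129461591-129472779) and Csf1 (chr3:107741048-107760469) are on the minus strand, and the annotation calls Clec7a a polymorphic pseudogene. Values of Lilrb4a are uncertain. Of its 50-base words, 47.2% are shared with other genes, first with its neighbour Lilr4b. Lilr4b has no row of its own in the table, and the length behind the deposited RPKM of Lilrb4a (15974 bases) is close to the distance from the start of Lilr4b to the end of Lilrb4a (15980 bases). Spp1 shares 11.6% of its words, mostly with Gm42793, and Itgax 8.02%, mostly with Itgad.

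Library totals ran from 1.66 to 31.998 M counts. The 13 libraries with the iPKR construct held less microglial RNA than the 16 without it. Outside the set, 10 microglial genes, among them Csf1r, C1qa, Laptm5, Itgam and Spi1, took 0.0598% to 1.17% of counts with the construct and 2.27% to 3.81% without it, while 8 neuron markers took 0.471% to 3.46% with it and 0.0561% to 0.409% without it. Neuron markers were highest in 5xFAD iPKR replicates 1 and 2 (3.06% and 3.46%) and iPKR ASV replicate 3 (2.16%). Border macrophage markers took at most 0.0323% of counts, and markers of monocytes and neutrophils or of dendritic cells at most 0.00784%, in any library. In these bulk pulldowns, fewer cells of a type and less RNA per cell cannot be told apart. In 8 libraries the Y-linked reads went against the labelled sex.

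**Figure D1:**
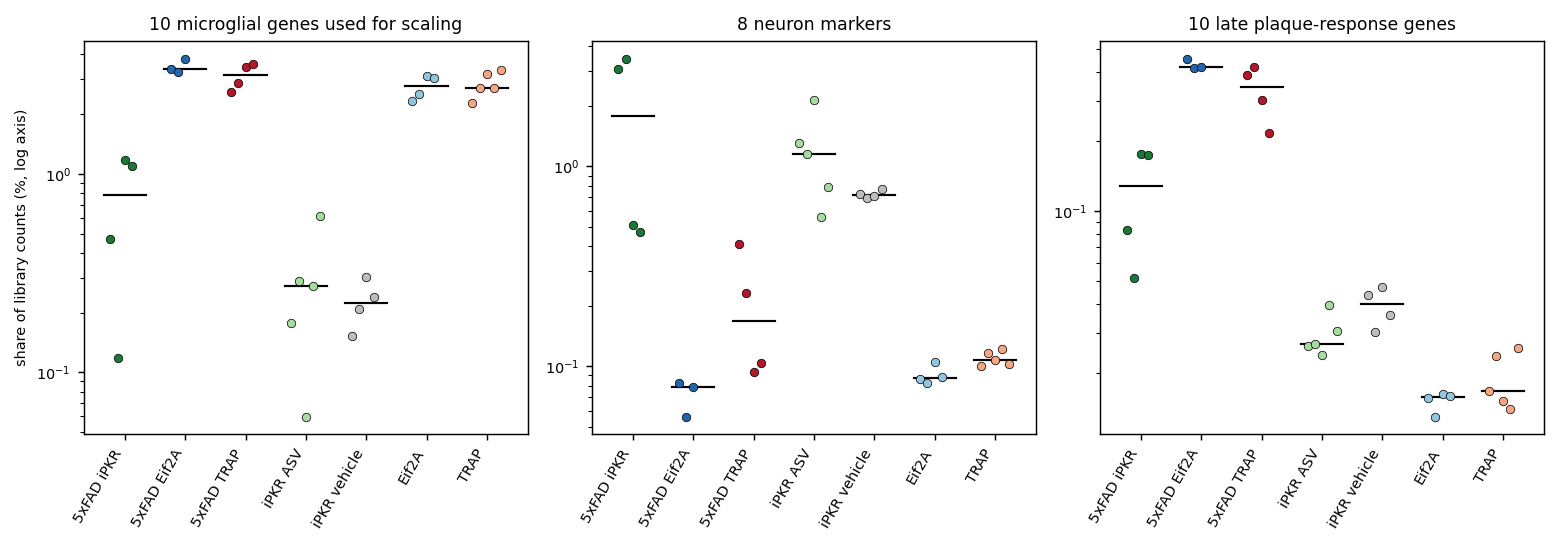
Share of library counts (percent, log axis) taken by the 10 microglial genes used for scaling (left), 8 neuron markers (middle) and the 10 late plaque-response genes (right), with 1 point per library and a line at each group's median. Microglial genes took at most 1.17% of counts in every group with iPKR and at least 2.27% in the other groups.

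The first comparison asked what 5xFAD did on the plain tag. In 5xFAD TRAP, 9 of the 10 genes rose by edgeR's quasi-likelihood test (adjusted p under 0.05 over all genes tested), where 0.709% of all genes rose. The median log2 fold change was 4.17 over the 10 genes and -0.06 over all genes. The smallest called change was that of Ank and the largest that of Cst7. For 9 of the 10 genes every 5xFAD TRAP library lay above every TRAP library, which held for 3.40% of all genes, and Gpnmb was the exception. VEGF and ASV were given to the 5xFAD TRAP mice alone, so 5xFAD and the injections cannot be told apart here.

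Of the secreted signals, Spp1 (osteopontin, a ligand of integrins and CD44) had 265, 233, 254 and 138 CPM in 5xFAD TRAP, against 8.47, 11.9, 8.33, 9.52 and 11.9 CPM in TRAP. The groups lay far apart, and replicate 4 was the lowest of the 5xFAD TRAP libraries (log2 fold change 4.38 ± 0.58 SE, adjusted p = 6.95e-05). The growth factor gene Igf1 had 152, 196, 156 and 91.3 CPM in 5xFAD TRAP, against 16.3, 1.40, 9.37, 6.50 and 13.3 CPM in TRAP, with no overlap (4.07 ± 0.57, adjusted p = 0.000131). Csf1, the ligand of the receptor that microglia need to survive, had 111, 156, 85.5 and 66.6 CPM in 5xFAD TRAP, against 12.8, 2.00, 14.6, 14.9 and 11.2 CPM in TRAP. All 4 libraries were above the 5, and Csf1 rose (3.34 ± 0.48, adjusted p = 0.000151). Dkk2, a secreted modulator of Wnt signals, was scarce, with 8.01, 8.22, 10.1 and 3.97 CPM in 5xFAD TRAP, against 0, 0.898, 0.104, 0 and 0 CPM in TRAP. The groups did not overlap, but the change missed the threshold (4.58 ± 1.28, unadjusted p = 0.0015, adjusted p = 0.112), and DESeq2 called it (adjusted p = 0.0214).

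Among the surface proteins, Itgax (the integrin chain CD11c) had 41.7, 63.6, 39.4 and 23.4 CPM in 5xFAD TRAP, against 3.80, 4.39, 0.624, 1.04 and 2.12 CPM in TRAP. It rose, with the lowest 5xFAD TRAP library far above the highest TRAP library (log2 fold change 4.51 ± 0.69 SE, adjusted p = 0.000342). Clec7a (Dectin-1, a receptor for fungal glucans) had 464, 609, 366 and 255 CPM in 5xFAD TRAP, against 21.3, 76.0, 14.1, 10.7 and 23.5 CPM in TRAP, and rose (3.74 ± 0.68, adjusted p = 0.00374). TRAP replicate 2 stood above the rest of its group and still below all 5xFAD TRAP libraries. Lilrb4a, an inhibitory receptor whose counts may include its neighbour, had 112, 128, 82.6 and 71.5 CPM in 5xFAD TRAP, against 8.76, 10.8, 7.08, 5.22 and 9.42 CPM in TRAP, with no overlap (3.37 ± 0.61, adjusted p = 0.00301). Gpnmb, a transmembrane glycoprotein of lysosomes and melanosomes, had 127, 129, 76.7 and 10.0 CPM in 5xFAD TRAP, against 10.5, 4.19, 0.104, 0 and 15.4 CPM in TRAP. Its replicate 4 lay inside the range of TRAP. Gpnmb rose (4.26 ± 0.97, adjusted p = 0.0255), but not when 5xFAD TRAP replicate 1 or 2 or TRAP replicate 2, 3 or 4 was left out (3.84 to 4.33, adjusted p from 0.0546 to 0.121).

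Cst7 (cystatin F, an inhibitor of lysosomal cathepsins) had 2358, 2410, 2091 and 1534 CPM in 5xFAD TRAP, against 27.4, 83.3, 54.7, 34.9 and 70.0 CPM in TRAP. The groups lay far apart (log2 fold change 5.34 ± 0.55 SE, adjusted p = 1.07e-06). Ank, which encodes a membrane protein for pyrophosphate and ATP export, had 529, 771, 345 and 291 CPM in 5xFAD TRAP, against 63.1, 63.1, 63.8, 67.0 and 128 CPM in TRAP. It rose (2.64 ± 0.26, adjusted p = 5.1e-07), with no overlap, and TRAP replicate 5 was the highest of its group. Within batch 1 alone 9 of the 10 genes were called, while batch 2 alone, with 1 TRAP library, called Cst7 (4.81). In batch 2 Ank was at 1.15 and Gpnmb at 1.87, and Clec7a was at 4.26 with its call lost (adjusted p = 0.183). Over all 16074 genes, batch 1 alone called 167. With libraries scaled to the 10 microglial genes the calls of Clec7a, Lilrb4a and Gpnmb were lost (adjusted p = 0.0564, 0.199 and 0.549), at log2 fold changes of 3.64, 3.27 and 3.83. On that scale 6 of the 10 genes were called, where 24 of all genes were called higher, against 114 with TMM scaling. 5xFAD TRAP replicates 1 and 2 had more neuron marker counts (0.409% and 0.234%) than any TRAP library (at most 0.123%), and the part of this in the result was not tested.

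**Figure D2:**
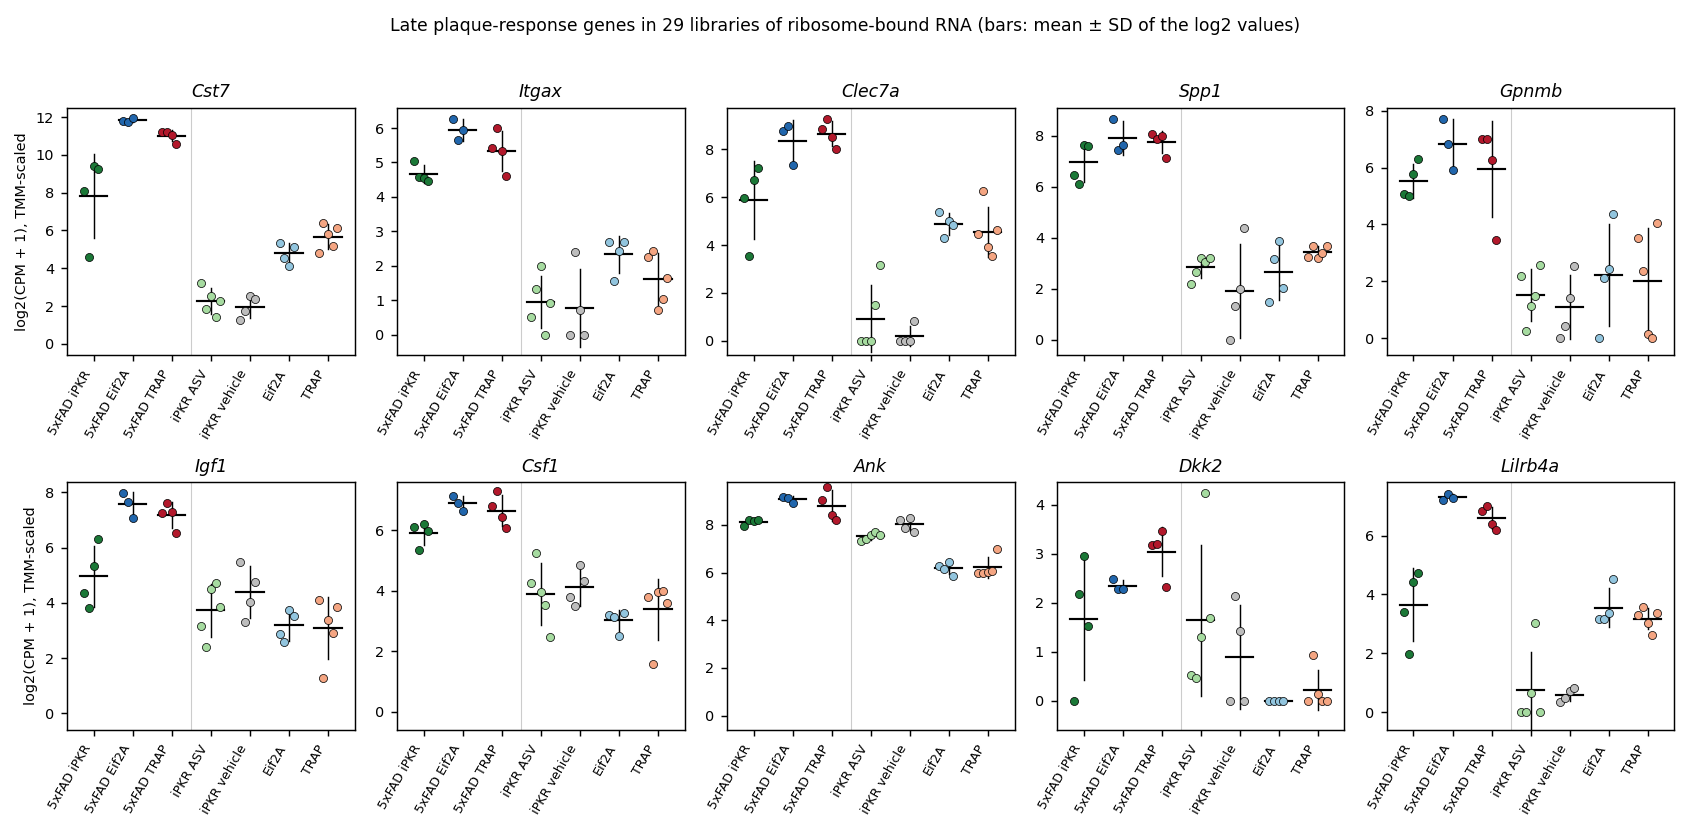
Level of each of the 10 genes in the 29 libraries, as log2(CPM + 1) on TMM-scaled library sizes, with 1 point per library and bars for the mean ± SD of the log2 values in each group. In Itgax, Spp1 and Csf1 all 11 libraries with 5xFAD lie above all 18 without it. The share of all genes for which this holds was not computed. In Ank the iPKR ASV libraries, at 159.9 CPM or more, lie above TRAP, at 128 CPM or less.

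The same question was asked where eIF2α cannot be phosphorylated, with no ASV in either group and all 7 libraries in batch 1. All 10 genes rose in 5xFAD Eif2A, where 2.08% of all genes rose. The median log2 fold change was 4.19, also with Dkk2 at its lower bound, against -0.06 over all genes. In all 10 genes every 5xFAD Eif2A library lay above every Eif2A library, which held for 11.5% of all genes.

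Cst7 had 3610, 3450 and 3975 CPM in 5xFAD Eif2A, against 39.1, 22.6, 16.6 and 33.4 CPM in Eif2A. This was its largest change of the 3 comparisons by 5xFAD (log2 fold change 7.22 ± 0.66 SE, adjusted p = 3e-07). Spp1 had 404, 175 and 196 CPM in 5xFAD Eif2A, against 1.80, 8.0, 13.7 and 3.15 CPM in Eif2A. Replicate 1 had the highest level of Spp1 of all 29 libraries (5.13 ± 0.67, adjusted p = 2.26e-05). Igf1 had 251, 199 and 134 CPM in 5xFAD Eif2A, against 6.30, 4.97, 12.5 and 10.6 CPM in Eif2A, and rose by 4.47 ± 0.63 (adjusted p = 7.11e-05). Csf1 had 139.9, 119 and 99.6 CPM in 5xFAD Eif2A, against 8.10, 7.72, 4.70 and 8.66 CPM in Eif2A, both tight groups (4.08 ± 0.54, adjusted p = 2.93e-05). Dkk2 had 4.56, 3.86 and 3.83 CPM in 5xFAD Eif2A, against 0 in all 4 Eif2A libraries. It was called (adjusted p = 0.0182) and was at least 50.5-fold higher, with 3 counts over the whole Eif2A group as the floor. The call ended without 5xFAD Eif2A replicate 1, Eif2A replicate 2 or Eif2A replicate 3 (adjusted p = 0.0809, 0.0501 and 0.079).

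Itgax had 75.5, 48.9 and 60.2 CPM in 5xFAD Eif2A, against 5.4, 1.93, 4.38 and 5.4 CPM in Eif2A (log2 fold change 3.91 ± 0.72 SE, adjusted p = 0.00165). Clec7a had 435, 503 and 164 CPM in 5xFAD Eif2A, against 40.9, 18.5, 30.8 and 28.0 CPM in Eif2A. Its replicate 3 was low beside the other two and still above the Eif2A libraries (3.70 ± 0.77, adjusted p = 0.00473). Lilrb4a had 147, 168 and 154 CPM in 5xFAD Eif2A, against 7.92, 8.0, 9.24 and 21.9 CPM in Eif2A, and rose (3.63 ± 0.68, adjusted p = 0.00168). Gpnmb had 209, 112 and 59.2 CPM in 5xFAD Eif2A, against 0, 3.31, 4.44 and 19.7 CPM in Eif2A. Both groups were uneven, and the call (4.30 ± 1.06, adjusted p = 0.0198) ended without 5xFAD Eif2A replicate 1 or 2 or Eif2A replicate 2 or 3 (4.07 to 4.25, adjusted p from 0.0596 to 0.112). Ank had 584, 560 and 483 CPM in 5xFAD Eif2A, against 77.4, 70.1, 86.2 and 57.7 CPM in Eif2A, and rose (2.89 ± 0.28, adjusted p = 4.94e-07). With microglial scaling 5 of the 10 genes were called, where 39 of all 16074 genes were called higher and 66 lower. Clec7a (3.22), Gpnmb (3.93), Itgax (3.48), Lilrb4a (3.15) and Dkk2 missed the threshold (adjusted p from 0.0847 to 0.188). With TMM scaling 334 of all genes were called higher.

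The third comparison set 5xFAD against no 5xFAD on the iPKR background, with VEGF and ASV on both sides. In 5xFAD iPKR 7 of the 10 genes rose, where 1.54% of all genes rose. The median log2 fold change was 3.65 over the 10 genes and 0.00 over all genes. For 7 of the 10 genes every 5xFAD iPKR library lay above every iPKR ASV library, which held for 1.54% of all genes. The genes called were Cst7, Clec7a, Itgax, Spp1, Gpnmb, Lilrb4a and Csf1, and Igf1, Ank and Dkk2 did not pass. The 10 microglial genes used for scaling took 0.467%, 0.119%, 1.17% and 1.1% of counts in 5xFAD iPKR, against 0.0598% to 0.612% in iPKR ASV, and 3 of those 10 genes also rose.

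Cst7 had 274.5, 23.1, 671 and 600.2 CPM in 5xFAD iPKR, against 8.32, 2.64, 4.71, 1.68 and 3.88 CPM in iPKR ASV. Replicate 2 of 5xFAD iPKR, the library with the least microglial RNA of its group, was the lowest for Cst7 and still above all iPKR ASV libraries (log2 fold change 6.27 ± 0.63 SE, adjusted p = 1.36e-06). Clec7a had 62.0, 10.7, 105 and 147 CPM in 5xFAD iPKR, against 0, 0, 0, 1.80 and 7.88 CPM in iPKR ASV, and rose (4.99 ± 0.81, adjusted p = 0.000536). Itgax had 32.2, 23.1, 22.4 and 21.2 CPM in 5xFAD iPKR, against 0.438, 1.51, 2.95, 0 and 0.905 CPM in iPKR ASV. Its 4 libraries were close together although their microglial shares differed (4.64 ± 0.73, adjusted p = 0.000388). Spp1 had 87.3, 68.1, 199.8 and 195 CPM in 5xFAD iPKR, against 3.51, 5.28, 8.25, 7.29 and 8.27 CPM in iPKR ASV, with no overlap (4.10 ± 0.60, adjusted p = 0.00015). Gpnmb had 32.6, 31.4, 53.5 and 77.0 CPM in 5xFAD iPKR, against 3.51, 0.189, 1.18, 1.80 and 4.91 CPM in iPKR ASV. It was called (4.17 ± 1.05, adjusted p = 0.0332), but not when any 1 library was left out other than 5xFAD iPKR replicate 2 and iPKR ASV replicate 1 (3.92 to 4.46, adjusted p from 0.0502 to 0.0804).

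Lilrb4a had 9.66, 2.96, 20.6 and 25.7 CPM in 5xFAD iPKR, against 0, 0, 0.589, 7.18 and 0 CPM in iPKR ASV. These groups overlapped, since iPKR ASV replicate 4 lay above 5xFAD iPKR replicate 2 (log2 fold change 3.20 ± 0.73 SE, adjusted p = 0.0179, and 2.94 with adjusted p = 0.0515 without 5xFAD iPKR replicate 4). Csf1 had 67.6, 39.7, 73.3 and 61.3 CPM in 5xFAD iPKR, against 18, 36.6, 14.7, 10.7 and 4.52 CPM in iPKR ASV. Its groups touched closely without overlap, and the call (1.88 ± 0.48, adjusted p = 0.0393) ended without any 1 library other than 5xFAD iPKR replicate 2 and iPKR ASV replicate 2 (1.49 to 1.90, adjusted p from 0.0638 to 0.116). Igf1 had 19.7, 13, 39.1 and 79.3 CPM in 5xFAD iPKR, against 7.89, 4.34, 21.8, 25.5 and 13.6 CPM in iPKR ASV, overlapping groups (1.17 ± 0.55, adjusted p = 0.353). Ank had 250.3, 294, 287 and 299 CPM in 5xFAD iPKR, against 159.9, 171, 191, 208 and 191 CPM in iPKR ASV. The Ank levels did not overlap, at a small change that did not pass (0.62 ± 0.25, adjusted p = 0.236). Dkk2 had 0, 3.55, 6.77 and 1.87 CPM in 5xFAD iPKR, against 0.438, 0.377, 1.47, 17.8 and 2.2 CPM in iPKR ASV, with an interval of the change from -1.94 to 2.36.

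Within batch 1 the test called 5 of the 10 genes, without Csf1 (1.1) and Gpnmb (4.57), and within batch 2 it called 5, without Itgax (5.36) and Lilrb4a (3.62). Of all 16074 genes 395 were called within batch 1 and 57 within batch 2. Without the 3 libraries richest in neuron markers 6 of the 10 were called, and Gpnmb was not (adjusted p = 0.114). There 740 of all genes were called. When libraries were scaled to the 10 microglial genes, all genes together moved to a median of -1.30. On that scale Cst7 (4.2), Clec7a (4.17), Itgax (3.47), Gpnmb (3.25) and Spp1 (2.76) were called higher in 5xFAD iPKR, where 31 of all 16074 genes were called higher and 5882 lower. Lilrb4a (1.66) and Csf1 (0.55) were not, and Igf1 (-0.68), Ank (-0.58) and Dkk2 (-1.37) turned negative without a call.

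**Figure D3:**
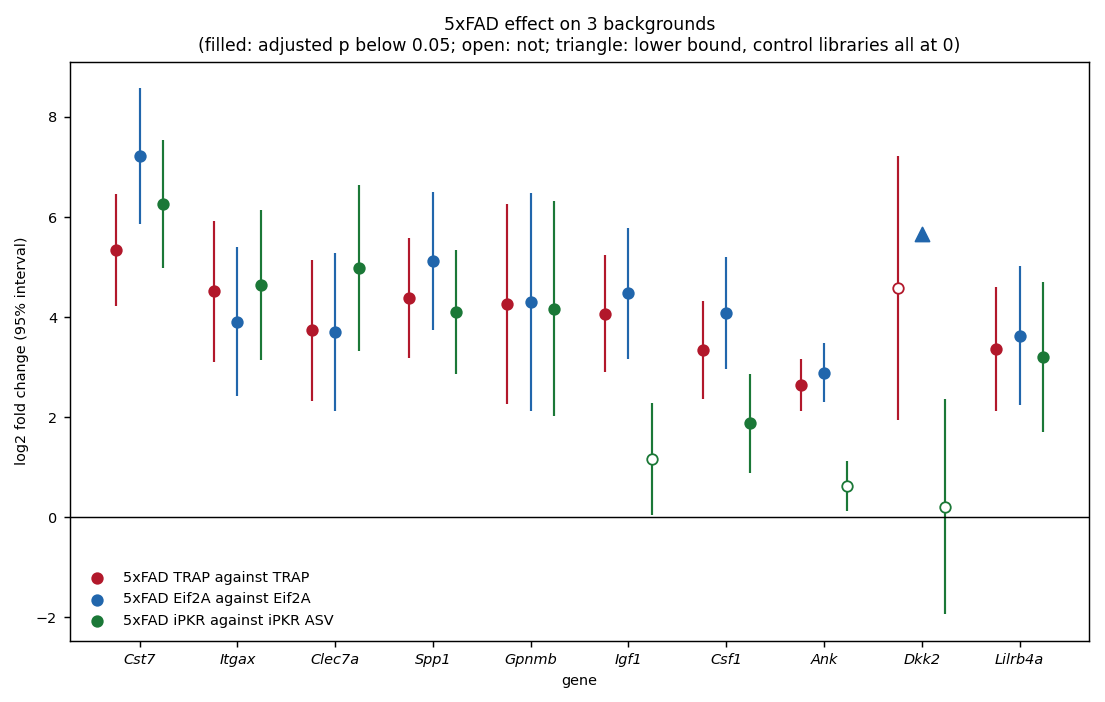
Log2 fold change of each gene (vertical axis) with 5xFAD on 3 backgrounds, with 95% intervals. Filled points passed the adjusted threshold, open points did not, and the triangle is the lower bound of Dkk2 in 5xFAD Eif2A. Cst7 reaches 7.22 in 5xFAD Eif2A against Eif2A, and Ank lies at 0.62 in 5xFAD iPKR against iPKR ASV.

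Whether the effect of 5xFAD differed between backgrounds was tested directly. For the Eif2A effect minus the TRAP effect none of the 10 genes was called, with 0.00622% of all genes called, and DESeq2 called none of the 9 to which it gave an adjusted p (Clec7a had none in any comparison). Cst7, with 1.88 ± 0.72 SE (adjusted p = 1), was the only one of the 10 at an unadjusted p under 0.05. For the iPKR ASV effect minus the TRAP effect Ank was called, lower by 2.02 on the log2 scale, with 0.0373% of all genes called in either direction. The Ank difference was -2.02 ± 0.36 SE (adjusted p = 0.0187), -2.64 within batch 1 (adjusted p = 0.0008) and -0.57 within batch 2, which has 1 TRAP library (adjusted p = 1). Leaving out 1 library ended the call for 7 of the 18: 5xFAD iPKR 1 or 3, 5xFAD TRAP 1 or 2, iPKR ASV 3, and TRAP 1 or 2 (-2.02 to -1.68, adjusted p from 0.0548 to 0.0786). Igf1 (-2.90 ± 0.79, adjusted p = 0.3), Dkk2 (-4.37 ± 1.73, adjusted p = 0.624) and Csf1 (-1.46, adjusted p = 0.723) reached only an unadjusted p under 0.05, and DESeq2 called Igf1 (-2.90, adjusted p = 0.0354). The test of iPKR ASV against TRAP compares libraries of unequal microglial share, and the part of that share was not tested. In both tests the TRAP effect alone sets injected 5xFAD mice against mice without VEGF and ASV. Background and injections therefore cannot be told apart.

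Without plaques the Eif2A allele went with no called change in the 10 genes. Eif2A against TRAP gave 0 calls among the 10 by edgeR, 0 at an unadjusted p under 0.05 and 0 of 9 by DESeq2. The percentage called over all genes was 0, and the median over the 10 genes was -0.04. Cst7 averaged 27.9 ± 10.2 CPM in Eif2A and 54.1 ± 23.4 CPM in TRAP (SD, n = 4 and 5), at a log2 fold change of -1.02 with an interval from -2.05 to 0.01 (unadjusted p = 0.0531, adjusted p = 0.866). Csf1 (-0.69), Spp1 (-0.36), Ank (-0.06) and Clec7a (-0.02) were below 0, and Lilrb4a (0.79), Itgax (0.51), Gpnmb (0.38) and Igf1 (0.06) above it, and with microglial scaling Itgax (-0.07), Gpnmb (-0.25) and Igf1 (-0.42) were below 0 too. The interval of Ank ran from -0.57 to 0.46, and those of Gpnmb (from -1.69 to 2.44) and Clec7a (from -1.36 to 1.33) were wide. Dkk2 was at 0 in all 4 Eif2A libraries and at 0.898 CPM or less in TRAP. With plaques, 5xFAD Eif2A against 5xFAD TRAP also gave 0 of the 10 by edgeR, 0 of 9 by DESeq2 and 0 at an unadjusted p under 0.05, where 0.168% of all genes were called. Cst7 averaged 3679 ± 269 CPM in 5xFAD Eif2A and 2098 ± 401 CPM in 5xFAD TRAP (SD, n = 3 and 4), without overlap. Its change was 0.87 with an interval from -0.26 to 1.99 (adjusted p = 0.605). Lilrb4a averaged 156 ± 10.8 CPM in 5xFAD Eif2A and 98.5 ± 25.9 CPM in 5xFAD TRAP, again without overlap, at 1.05 with an interval from -0.27 to 2.38 (adjusted p = 0.59). Levels without overlap on the higher side held for 7.97% of all genes. With only these 2 groups in the model Cst7 was called (0.55, adjusted p = 0.00348), where 1235 of all 16074 genes were called. With microglial scaling and all groups in the model, Cst7 was at 0.12 and Lilrb4a at 0.52, and in both genes the 2 groups overlapped. There the median of all genes was -0.81, and 0 of them were called. The 5xFAD TRAP mice alone had VEGF and ASV, so the allele and the injections cannot be told apart.

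Adding ASV to the iPKR construct moved none of the 10 genes past the threshold. iPKR ASV against iPKR vehicle gave 0 calls among the 10 by edgeR and 0 of 9 by DESeq2, where edgeR called 0.423% of all genes. Clec7a and Ank had an unadjusted p under 0.05. Clec7a had 0, 0, 0, 1.80 and 7.88 CPM in iPKR ASV, against 0, 0, 0 and 0.781 CPM in iPKR vehicle, levels too low to order (3.51 ± 1.24 SE, adjusted p = 0.168). Ank had 159.9 to 208 CPM in iPKR ASV, against 297, 236, 316 and 208 CPM in iPKR vehicle. Every iPKR ASV library lay below every iPKR vehicle library for Ank, by a narrow margin (-0.50 ± 0.25, adjusted p = 0.303). Such separation on the lower side held for 2.39% of all genes.

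With the construct, VEGF and vehicle, the 10 genes were called about as often as all genes. Of the 10 genes, 3 fell and 2 rose in iPKR vehicle against TRAP. Of all genes 54.1% were called, 28.6% higher and 25.4% lower, so these counts are no result about the set. With microglial scaling 1 of the 10 was lower and 6 were higher, where 35 of all 16074 genes were lower and 14660 higher. Cst7 had 1.39, 2.28, 4.84 and 4.24 CPM in iPKR vehicle, all far below the lowest TRAP library at 27.4 CPM (log2 fold change -4.13 ± 0.61 SE, adjusted p = 2.01e-06). Clec7a was at 0 in 3 of 4 iPKR vehicle libraries, and at least 10.7 CPM in TRAP (-7.75 ± 1.14, adjusted p = 2.09e-06). Lilrb4a had 0.279, 0.389, 0.631 and 0.781 CPM in iPKR vehicle, against 5.22 to 10.8 CPM in TRAP (-4.30 ± 0.80, adjusted p = 5.55e-05). Ank was higher in iPKR vehicle without overlap (1.76 ± 0.25, adjusted p = 1.57e-06), at 208 CPM or more, against at most 128 CPM in TRAP. Of all genes 24.8% were higher without overlap and 23.8% lower without overlap. Igf1 had 43.5, 8.97, 15.1 and 26.0 CPM in iPKR vehicle, against 1.40 to 16.3 CPM in TRAP, and rose (1.35 ± 0.55, adjusted p = 0.0389). That call ended without iPKR vehicle replicate 1 (0.55, adjusted p = 0.425) or any of TRAP replicates 2 to 5 (1.05 to 1.39, adjusted p from 0.0581 to 0.0983). Others were called lower once a high iPKR vehicle library was left out, Itgax without replicate 2 (-3.09, adjusted p = 0.0121) and Spp1 without replicate 4 (-2.75, adjusted p = 0.000404), and Dkk2 was called higher without TRAP replicate 2 (4.10, adjusted p = 0.0379). Within batch 2 alone, with 1 TRAP library, 2 of the 10 were called. The 10 genes used for scaling all fell in this comparison, with a median of -4.39, against 0.17 over all genes.

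With plaques on both sides, 5 of the 10 genes fell in 5xFAD iPKR against 5xFAD TRAP and none rose, where 23% of all genes fell and 47.9% were called in either direction. The median was -1.33 over the 10 genes and 0.21 over all genes. Cst7 averaged 392 ± 301 CPM in 5xFAD iPKR and 2098 ± 401 CPM in 5xFAD TRAP (SD, n = 4 each), with no overlap (log2 fold change -2.95 ± 0.58 SE, adjusted p = 0.000144). Clec7a fell by 2.99 ± 0.79 (adjusted p = 0.00294), Lilrb4a by 2.85 ± 0.69 (adjusted p = 0.00128) and Igf1 by 2.28 ± 0.60 (adjusted p = 0.00262), each without overlap. Levels without overlap on the lower side held for 22.1% of all genes. Ank fell by 0.77 ± 0.27 (adjusted p = 0.0211), which was not called without 5xFAD TRAP replicate 2 (-0.44, adjusted p = 0.157) and was 0.03 within batch 2. Spp1 (-1.11), Csf1 (-0.82), Itgax (-0.91), Gpnmb (-1.55) and Dkk2 (-1.04) were not called. Cst7 changed by -4.68 within batch 1, where 6 of the 10 genes and 6362 of all 16074 genes were called. Within batch 2 Cst7 changed by -1.64 (adjusted p = 0.0048), where 2 of the 10 and 4172 of all genes were called. Without the 3 libraries richest in neuron markers 2 of the 10 were called, Cst7 (-1.95) and Lilrb4a (-2.23). There 6549 of all genes were called. Of the 10 genes used for scaling 9 fell, with a median of -2.70.

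The genes separated when libraries were scaled to those 10 microglial genes instead of all genes. On that scale the median of all genes was 3.22 in 5xFAD iPKR against 5xFAD TRAP. Cst7 stood at -0.53 (interval from -1.69 to 0.63), Clec7a at -0.35 (from -2.10 to 1.40) and Lilrb4a at -0.19 (from -2.09 to 1.71), none of them called. Spp1 (2.02, adjusted p = 0.0235), Csf1 (2.14, adjusted p = 0.0026) and Ank (2.54, adjusted p = 0.0002) were called higher, all below the median of all genes. Of all 16074 genes 13301 were called higher there, so these 3 calls are no result about the genes. In iPKR vehicle against TRAP the median of all genes was 4.52 on this scale. Cst7 was then at 0.24 (from -0.88 to 1.36) and Lilrb4a at -0.19 (from -2.16 to 1.77), while Clec7a remained lower (-3.63, adjusted p = 0.0045). Ank reached 6.05, Dkk2 6.02, Igf1 5.72 and Csf1 5.23, above that median, and Itgax (3.27, adjusted p = 0.0017) and Spp1 (3.35, adjusted p = 0.00077) lay below it. These 6 were called higher, where 14660 of all 16074 genes were called higher. Whether these counts came from microglia or from other cells in the pulldown was not tested.

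**Figure D4:**
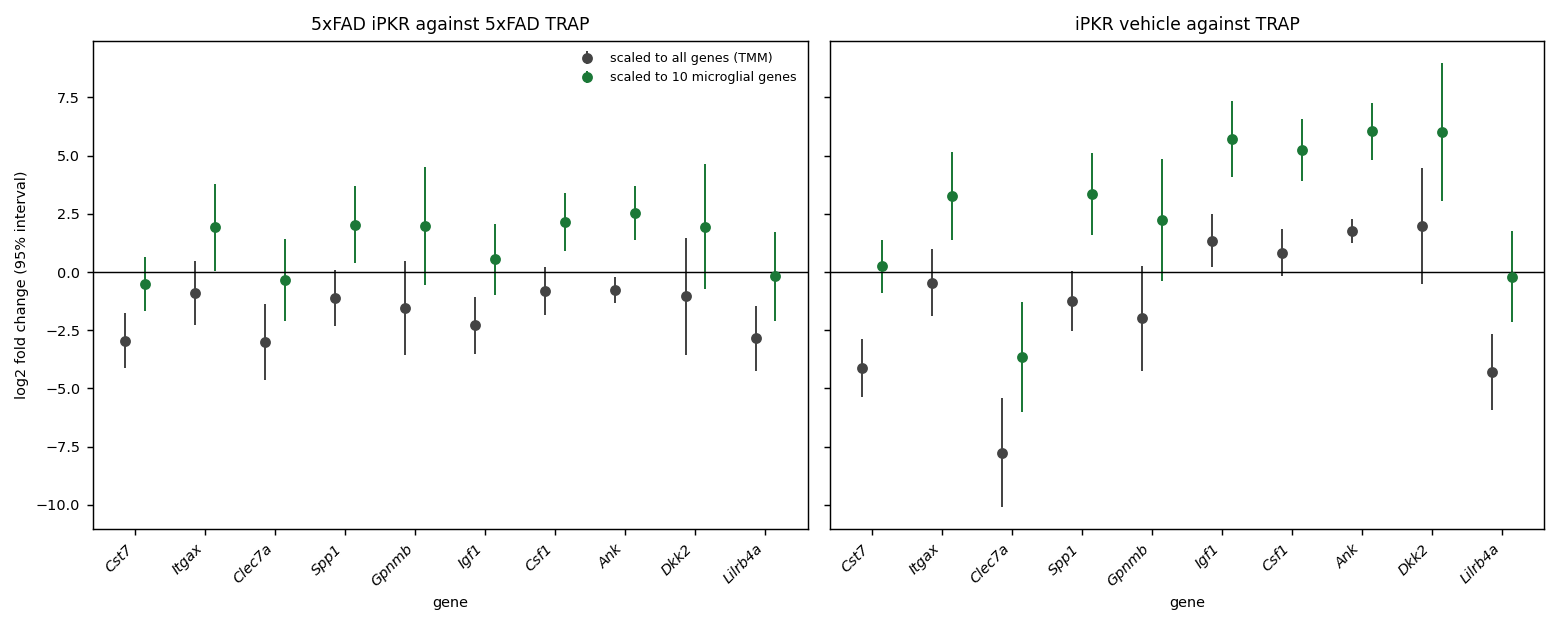
Log2 fold change (95% interval) of the 10 genes in 5xFAD iPKR against 5xFAD TRAP (left) and in iPKR vehicle against TRAP (right), scaled to all genes (grey) or to 10 microglial genes (green). Cst7 and Lilrb4a lie below 0 on the first scale in both panels and within an interval that includes 0 on the second, and Ank lies highest on the second.

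On TMM-scaled CPM 9 of the 10 genes had their 3 highest means across the 7 groups in the 3 groups with 5xFAD, and Dkk2 did not. The highest mean was that of 5xFAD Eif2A for 8 genes and that of 5xFAD TRAP for Clec7a and Dkk2. With microglial scaling it was that of 5xFAD Eif2A for Cst7 and Lilrb4a, and of 5xFAD TRAP for Clec7a. It was that of 5xFAD iPKR for Itgax, Spp1, Gpnmb and Csf1, and of a group without 5xFAD for Igf1, Ank and Dkk2. In TMM-scaled CPM every library with 5xFAD lay above every library without it in Spp1, Csf1 and Itgax, narrowly so in Csf1. The share of all genes for which this held was not computed. The lowest library with 5xFAD had 21.2 CPM of Itgax, against 5.4 CPM in the highest library without 5xFAD. For Spp1 these were 68.1 CPM with 5xFAD and 19.9 CPM without it, and for Csf1 39.7 CPM with 5xFAD and 36.6 CPM without it. The order within 5xFAD was looser. Igf1 averaged 195 ± 58.6 CPM in 5xFAD Eif2A, 149 ± 43.0 CPM in 5xFAD TRAP and 37.8 ± 29.8 CPM in 5xFAD iPKR (SD, n = 3, 4 and 4), and the first 2 differed by less than their spread. The same held for Ank (542 ± 52.8, 484 ± 217 and 282 ± 21.9 CPM) and for Spp1 (258 ± 127, 223 ± 58.1 and 138 ± 69.7 CPM), in the same order of groups. In the groups without 5xFAD, Itgax averaged 1.16 ± 1.14 CPM in iPKR ASV, 1.21 ± 2.03 CPM in iPKR vehicle, 4.28 ± 1.64 CPM in Eif2A and 2.39 ± 1.66 CPM in TRAP (SD, n = 5, 4, 4 and 5). With microglial scaling the libraries with and without 5xFAD overlapped in Spp1, Csf1 and Itgax. On that scale the lowest 5xFAD TRAP library had 64.4 CPM of Spp1, 31.1 of Csf1 and 10.9 of Itgax. The highest iPKR ASV library had 257, 459 and 91.8.

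Per kilobase of exon Cst7 stood first in every group with 5xFAD, with 398 ± 305 CPM per kilobase in 5xFAD iPKR, 3731 ± 273 in 5xFAD Eif2A and 2128 ± 407 in 5xFAD TRAP. In 5xFAD TRAP the next levels per kilobase were 160 for Clec7a, 135 for Spp1 and 134 for Ank, and the lowest was 2.04 for Dkk2. In iPKR ASV and iPKR vehicle Ank was first, at 51.0 and 73.1 CPM per kilobase.

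Some libraries stood at the edge of their group in most of these genes. 5xFAD TRAP replicate 4 was the lowest of its group in all 10 genes, although its share of the microglial scaling genes (3.59%) was the highest of that group. 5xFAD TRAP replicate 2 was the highest in 8 genes. 5xFAD Eif2A replicate 1 was the highest in 7 genes of its group, and 5xFAD iPKR replicate 2, with the smallest microglial share (0.119%), was the lowest in 7 of its group.

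Other late plaque-response genes moved with 5xFAD on each background. Of 11 measured members of a list of 12, 9 rose in 5xFAD iPKR, 11 in 5xFAD Eif2A and 10 in 5xFAD TRAP, with median log2 fold changes of 1.90, 2.13 and 1.56, each against its own control. Of all genes 1.54%, 2.08% and 0.709% rose, in that order of groups. Lpl (lipoprotein lipase) changed by 2.73 ± 0.46 SE in 5xFAD iPKR (adjusted p = 0.000878), 4.67 ± 0.53 in 5xFAD Eif2A (adjusted p = 3.06e-06) and 5.07 ± 0.49 in 5xFAD TRAP (adjusted p = 5.1e-07). The receptor tyrosine kinase gene Axl changed by 2.63, 4.45 and 2.51 and the cathepsin gene Ctsl by 1.94, 1.79 and 1.49, in that order of groups, all called. Fabp5, a fatty acid carrier, rose in 5xFAD Eif2A (3.12 ± 0.39, adjusted p = 1.4e-05) and in 5xFAD TRAP (3.33 ± 0.36, adjusted p = 2.52e-06). Its iPKR ASV effect minus its TRAP effect was -2.81 ± 0.50 (adjusted p = 0.0187), and Ank is also among the 6 genes called there. Ccl6 was not in the table. With microglial scaling 1, 7 and 4 of the 11 were called higher, where 31, 39 and 24 of all 16074 genes were.

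Of 8 measured early-response genes 5 rose in 5xFAD iPKR, 4 in 5xFAD Eif2A and 3 in 5xFAD TRAP. Of all genes 1.54%, 2.08% and 0.709% rose there, in that order. The lipid carrier gene Apoe (2.09, 3.39 and 2.03) and the protease genes Ctsb (2.05, 2.41 and 1.69) and Ctsd (2.34, 2.02 and 1.26) rose in all 3, Trem2, the receptor named above, in 5xFAD iPKR (2.31) and 5xFAD Eif2A (1.74), and Lyz2 in 5xFAD iPKR (2.32). With microglial scaling 3, 2 and 0 of the 8 were called higher, where 31, 39 and 24 of all 16074 genes were. In 5xFAD iPKR 1 of the 8 was then called lower, where 5882 of all genes were. Of 9 measured homeostatic genes, 2 rose in 5xFAD iPKR, Csf1r (1.49 ± 0.25) among them, with 9 of 9 positive and a median of 1.32. By edgeR 0 were called in 5xFAD Eif2A and in 5xFAD TRAP, with medians of 0.25 and -0.30 and 1 gene in each at an unadjusted p under 0.05. Csf1r is also among the genes used for microglial scaling, under which no homeostatic gene was called in these 3 comparisons and the median in 5xFAD iPKR was 0.08. P2ry12, Gpr34 and P2ry13 were not analysed here.

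The known partners of the 10 genes were read in the same way. Of 24 receptors, ligands, substrates and signal carriers, 7 rose in 5xFAD iPKR, 2 in 5xFAD Eif2A and 1 in 5xFAD TRAP, with medians of 0.75, 0.22 and 0.13. Of all genes 1.54%, 2.08% and 0.709% rose, in that order. Ctsl, a protease in the lysosomes where cystatin F acts, rose in all 3. Itgb2, the chain that pairs with Itgax, rose in 5xFAD iPKR (2.16 ± 0.22, adjusted p = 1.61e-06) and in 5xFAD Eif2A (1.53 ± 0.24, adjusted p = 0.000227). In 5xFAD iPKR the Csf1 receptor gene Csf1r (1.49), the integrin genes Itgam (1.25) and Itgb1 (0.94), the phosphatase gene Ptpn6 (1.98), which acts on inhibitory receptors, and Ctsc (1.58), a target of cystatin F, rose too. With microglial scaling none of the 24 was called higher on any of the 3 backgrounds. In 5xFAD iPKR 6 of the 24 were then called lower, with a median of -0.54, where 5882 of all 16074 genes were called lower at a median of -1.30, so the 6 are no result about the partners. Of 15 tested relatives of the 10 genes, Itgam alone rose in 5xFAD iPKR (1.25) and 0 in 5xFAD Eif2A and 5xFAD TRAP. With microglial scaling none of them was called higher on the 3 backgrounds.

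The 5 genes outside the set whose levels followed the mean of the 10 most closely over the 29 libraries were Axl, Atp6v0d2, Apoe, Cd200r4 and Anxa2. The measure was the root mean square difference between the centred log2(CPM + 1) of a gene and the centred mean of the 10 genes, over 16064 genes. It was 0.668 for Axl, 0.669 for the proton pump subunit gene Atp6v0d2, 0.718 for Apoe, 0.751 for the receptor gene Cd200r4 and 0.769 for the annexin gene Anxa2. The 10 genes themselves ranged from 0.746 (Itgax) to 1.84 (Cst7). Axl averaged 110.6 CPM in 5xFAD iPKR, 610 in 5xFAD Eif2A, 317 in 5xFAD TRAP, 18.3 in iPKR ASV, 21.6 in iPKR vehicle, 26.9 in Eif2A and 54.2 in TRAP. These values are descriptive, and the part of library composition in them was not tested.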

How the data were processed

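The authors deposited raw counts per gene and, as a second table, RPKM values, scaled for 9 of the 10 genes by their full span with introns. Per the submitters' processing notes, the tools were featureCounts 2.0.3, HISAT2 2.2.1 and Trim Galore, with mm10. The annotation and the use of strand are not given in the sources used here. Depth, at 1.66 to 31.998 M counts, limits precision for genes such as Dkk2, and floors cover counting error only. Groups came from the labels, 1 mouse per library. The members and gene lists were chosen with earlier results of these data known. Some items of the lists are not reported here.

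Genes passed edgeR's filterByExpr (10 counts at least, 15 in total, by group). Counts were TMM-scaled and fitted to all 29 libraries with group, batch and labelled sex (edgeR 4.0.16 in R 4.3.3, quasi-likelihood F-test, two-sided, robust, 20 residual degrees of freedom). P-values were Benjamini-Hochberg adjusted over 16074 genes at a threshold of 0.05. CPM are TMM-scaled. The procedure was tested on simulated data. "Microglial scaling" takes library sizes from 10 microglial genes. Named list genes were up to 4 of the called ones with the smallest p per list and 5xFAD comparison, and any needed for a count. Alternatives were other scalings and filters, models without sex or batch, single batches, only the groups compared, the groups with or without iPKR, a replicate block, limma-voom and limma-trend on RPKM (limma 3.58.1), DESeq2 1.42.0 and each library left out. The fits without 3 neuron-rich libraries and with sex from Y-linked reads were added after seeing the data. None of 47 pairs of libraries within groups were copies of each other. Same-numbered libraries of 5xFAD iPKR and 5xFAD TRAP deviated together (4 pairs, r from 0.166 to 0.286). They share their batch, and 1 of the 4 numbers correlated best with its own, so a pairing of mice was not shown.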

Additional observations from a re-analysis of the deposited data

Results flagged for a closer look

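Of 60 checks of a gene in a group of 4 or 5 libraries, 11 had 1 library far from the others. The cutoff flags about 1 in 20 only where values follow a normal distribution. These were unlogged CPM, some at 0, so the 11 cannot be set against chance. The 11 fell on 7 libraries. iPKR ASV replicate 4 stood high for Dkk2 (17.8 CPM, next 2.2) and for Lilrb4a (7.18 CPM, next 0.589), and iPKR ASV replicate 5 for Clec7a (7.88 CPM, next 1.80). iPKR vehicle replicate 4 stood high for Spp1 (19.9 CPM, next 2.94) and for Clec7a (0.781 CPM, the others at 0), and iPKR vehicle replicate 2 for Itgax (4.22 CPM). Eif2A replicate 4 was high for Lilrb4a (21.9 CPM, next 9.24). TRAP replicate 2 was high for Clec7a (76.0 CPM, next 23.5) and Dkk2 (0.898 CPM, next 0.104) and low for Csf1 (2.00 CPM, next 11.2), and TRAP replicate 5 was high for Ank (128 CPM, next 67.0). The effect of 5xFAD on Ank differed between backgrounds by edgeR's test of the difference, at -2.02 for iPKR ASV minus TRAP. VEGF and ASV went with 5xFAD in the TRAP effect alone, so background and injections cannot be told apart there.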

How the results depend on the processing

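With microglial scaling, log2 fold changes crossed 0 to 0.24 for Cst7, 3.27 for Itgax and 3.35 for Spp1 in iPKR vehicle against TRAP, and 2.24 for Gpnmb without a call. In 5xFAD iPKR against 5xFAD TRAP they crossed 0 to 2.54 for Ank, 2.14 for Csf1, 0.55 for Igf1 and 2.02 for Spp1. Of these 3 were called, where 13301 of all genes were called higher. They also crossed to 1.93 for Itgax, 1.97 for Gpnmb and 1.95 for Dkk2, uncalled on both scales. Ank crossed to 0.031 within batch 2 alone. The scaling itself moves all genes, by the medians given above. The number of the 10 genes called also moved by more than 1.5 times as follows, and the cause was not tested. In 5xFAD TRAP against TRAP it was 1 in batch 2 alone. In 5xFAD Eif2A against Eif2A it was 5 with microglial scaling, where 105 of all genes were called. In 5xFAD iPKR against iPKR ASV it was 4 with only these groups in the model, where 10 of all genes were called. It was also 4 there with a replicate block (135 of all genes) and with the 3 iPKR groups in the model (21 of all genes). The fit to all 29 libraries called 277 of all genes there. In 5xFAD Eif2A against 5xFAD TRAP it was 1 with only these groups, where 1235 of all genes were called. In iPKR vehicle against TRAP it was 2 in batch 2 alone. In 5xFAD iPKR against 5xFAD TRAP it was 2 in batch 2 alone, where 4172 of all genes were called. It was also 2 there without the 3 neuron-rich libraries, where 6549 of all genes were called. For the iPKR ASV effect minus the TRAP effect it was 2 with DESeq2, and 0 in batch 2 alone, with limma-trend on RPKM at either pseudocount (0.1 or 0.01), with microglial scaling and with only these groups. With 1 library left out it ran from 8 to 9 in 5xFAD TRAP, 8 to 10 in 5xFAD Eif2A, 4 to 7 in 5xFAD iPKR against iPKR ASV (4 without 5xFAD iPKR replicate 4), 4 to 5 in 5xFAD iPKR against 5xFAD TRAP, 4 to 6 in iPKR vehicle and 0 to 1 for the iPKR difference, and stayed at 0 in the other comparisons. DESeq2 gave Clec7a no adjusted p.

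Whether the replicate numbers pair the mice is not known. In 5xFAD iPKR against 5xFAD TRAP the replicate block left 5 calls and changed no call, where 7263 of all genes were called. The block gave 8 calls in 5xFAD TRAP (76 of all genes) and 4 in iPKR vehicle (7718 of all genes). It gave 9 in 5xFAD Eif2A (357 of all genes), where 3 of 3 numbers correlated best with their own (r from 0.0387 to 0.122). In 5xFAD iPKR against iPKR ASV it gave 4, where 135 of all genes were called (r from -0.583 to 0.115). The highest mean of a gene was in a group with 5xFAD for 10 of 10 genes, and for 7 with microglial scaling. Of the single-gene values under other alternatives, 1450 kept direction and call, 73 lost the call, 16 gained one and 113 uncalled ones moved across 0. Over all genes DESeq2 called 339 in 5xFAD TRAP, 1034 in 5xFAD Eif2A and 669 in 5xFAD iPKR, against edgeR's 127, 499 and 277. The higher share of those 499 was 66.9%, and 56.8% or 52.5% with RLE or upper-quartile factors.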
